A study of Rattus norvegicus with 30 samples.

Results

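The change between day 14 and day 7 after delayed repair of the rat median nerve was examined in 9 of the 30 samples of the series, chosen by their labels alone: 4 libraries of delayed day 14 and 5 of delayed day 7. The rats were adult wild-type females (Rattus norvegicus). Their median nerve, which runs down the forelimb, was cut so that 8 mm were missing, and 3 months later the stumps were joined through a 10 mm conduit made of chitosan, a polymer derived from chitin. Both groups share the cut, the wait and the conduit, and differ in how many days after the repair the tissue inside the tube was collected, 14 or 7. Day 14 and day 7 of immediate repair (4 libraries each, tube placed at the time of the cut), day 21 of delayed repair (3 libraries) and uninjured control nerve (5 libraries) serve as context. Poly(A) RNA was sequenced, and the values are raw read counts per gene.

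When a nerve gap is bridged with a tube, a provisional fibrin matrix is known to form first. Fibroblasts, blood vessels, macrophages and Schwann cells, the glia of peripheral nerve, then enter it from both stumps, and axons follow the Schwann cells. A long wait before repair is known to leave Schwann cells of the far stump without axon contact and less able to support regrowth. The deposited table names genes by Ensembl ID only and does not pair the IDs with gene symbols. No gene is therefore given a name or a role here, and the labelled tissue could not be checked against marker genes. The tissue is a mixture, and in bulk RNA a change in the share of a cell type and a change in RNA per cell cannot be told apart.

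The 9 libraries held 12176007 to 17334752 counts each, and 16015 genes of the 32545 in the table passed the filter on low counts. Nothing in the labels ties a replicate to an animal. The main p-values rest on 1 spread per gene, shared by the 7 groups of all 30 libraries, and that spread may be technical. The 4 day 14 libraries were close to each other, with Spearman correlations of 0.960 to 0.983 over the tested genes. The 5 day 7 libraries correlated with each other at 0.855 to 0.974, and day 14 with day 7 libraries at 0.795 to 0.940. Day 7 replicates 3 and 4 lay nearest to day 14 (0.903 to 0.940 and 0.904 to 0.930), replicate 5 at 0.898 to 0.916, replicate 2 at 0.835 to 0.880 and replicate 1 farthest at 0.795 to 0.832. Correlations are across genes, which are not independent replicates.

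The leading component of the 9 libraries held 60.6% of the variance and placed the groups apart. Day 14 libraries lay at 73.5 to 101 on it, against -165.8, -119.1, -34.2, -39.0 and 22.8 for day 7 replicates 1 to 5. The groups do not overlap on this component, but the day 7 libraries span a longer stretch of it than the distance between the nearest members of the groups. The next component (15.2%) held day 7 replicate 5 at 127.3 and the other 8 libraries between -25.0 and -8.4. The biological coefficient of variation within a group was 28.6% at day 14 and 60.8% at day 7, or 46.6% at day 7 without replicate 5. Of all tested genes, 77.5% had a larger SD of log2 CPM (counts scaled to a common library size) among the day 7 than among the day 14 libraries.

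**Figure D1:**
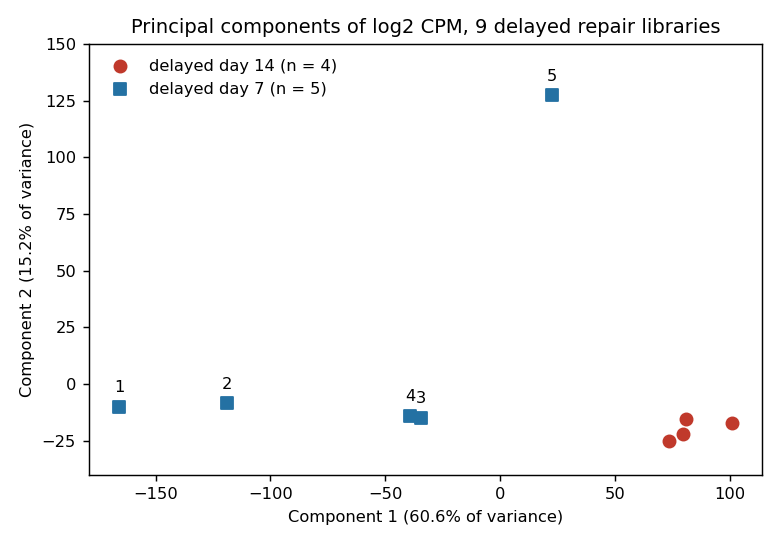
Principal components of log2 CPM (counts scaled to library size) over the 9 delayed repair libraries, with component 1 (60.6% of variance) across and component 2 (15.2%) up. Red circles are the 4 day 14 libraries and blue squares the 5 day 7 libraries with their replicate numbers. Day 14 libraries lie together at the right, and day 7 libraries spread from -165.8 to 22.8, with replicate 5 alone at 127.3 on component 2.

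At day 14, rises and falls against day 7 were close in number, but the large changes were mostly rises. At day 14, 2896 genes were higher (18.1% of those tested) and 2661 lower (16.6%) than at day 7, together 34.7% (quasi-likelihood test of edgeR, with p adjusted by Benjamini-Hochberg and a threshold of 0.05). Of the rises, 1274 were at least 4-fold (7.96% of genes tested), and of the falls 441 (2.75%). On the log2 scale the median called rise was 1.80, with a median SE of 0.47, and the median called fall -0.80, with a median SE of 0.21, while the median over all tested genes was -0.02. Falls were mostly small, with 1600 under 2-fold, 620 of 2-fold to under 4-fold, 296 of 4-fold to under 16-fold and 145 of at least 16-fold. Among rises the same steps held 769, 853, 1105 and 169 genes.

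In 26.2% of tested genes every library of one day lay beyond every library of the other, and of these 2491 were higher (15.6% of tested) and 1697 lower (10.6%) at day 14. Of the genes called by edgeR, 2267 of the 2896 rises and 1530 of the 2661 falls showed no overlap. Among the 10458 genes not called, the 95% interval of the change lay within 2-fold in either direction for 55.7%. For the others the interval reached beyond 2-fold at this depth and spread, so a change of 2-fold or more is not shown to be absent.

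The number of calls depended on which libraries entered the fit. It was 5557 of 16015 genes tested with all 30 libraries, and 3347 of 14306 (1787 higher, 1560 lower) when the 9 libraries were filtered, scaled and fitted alone with edgeR. Of those, 1737 rises and 1484 falls were also called with all libraries. The shared fit uses 1 estimate of spread per gene for all groups, and the day 7 group varied more than the day 14 group. Limma voom, with weights estimated for each sample or for each group, called 5890 and 5054 genes. Without day 7 replicate 5, edgeR called 6390 genes in the fit of all groups (39.9% of 15997 tested), 3528 higher and 2862 lower. With the compared groups fitted alone and without that library, it called 4894 of 14153.

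**Figure D2:**
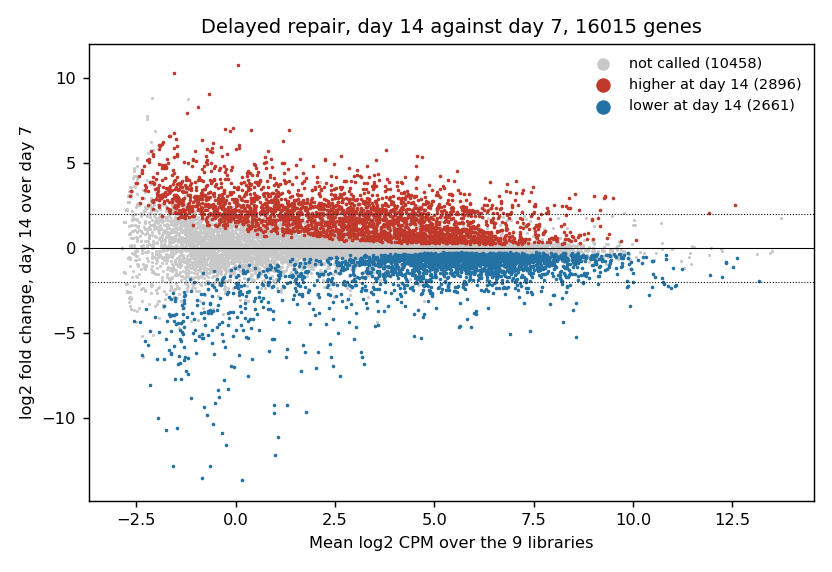
Each point is 1 of 16015 tested genes, with its mean log2 CPM over the 9 libraries across and its log2 fold change of day 14 over day 7 up. Red points are the 2896 genes higher and blue points the 2661 genes lower at day 14 (edgeR adjusted p under 0.05), grey points the 10458 not called, and dotted lines mark 4-fold. Rises of at least 4-fold number 797, 341 and 136 when genes are cut by level into 3 equal parts (lowest, middle, highest), and in the highest part most called genes are falls (1608 of them, 92 at least 4-fold).

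Rises and falls differed in abundance. When the tested genes were ranked by mean log2 CPM over the 9 libraries and cut into 3 equal parts, the lowest part (median 1.34 CPM) held 1157 rises and 350 falls. The middle part (median 17.5 CPM) held 1084 rises and 703 falls. In the highest part (median 75.8 CPM) falls outnumbered rises, with 655 rises and 1608 falls. Changes of at least 4-fold were mostly rises in all 3 parts, with 797 rises and 250 falls in the lowest, 341 and 99 in the middle and 136 and 92 in the highest. Among the 100 most abundant genes, 50 fell, 11 rose and 39 were not called. CPM is not corrected for gene length, and the power to call small changes rises with counts, so these counts compare levels of reads rather than of molecules.

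The genes called higher took 22.0% to 25.2% of all counts in the 4 day 14 libraries, against 3.6%, 4.8%, 9.0%, 8.0% and 8.3% in day 7 replicates 1 to 5. The genes called lower took 21.6% to 23.8% of counts at day 14, against 53.4%, 48.2%, 37.4%, 41.9% and 40.2% at day 7. The groups do not overlap in either share, and day 7 replicates 1 and 2 lie farthest from day 14 in both. These shares describe genes chosen in the same libraries and are no test. The median called rise stood at 17.9 to 22.3 CPM at day 14 and at 1.69 to 8.38 CPM at day 7. The median called fall stood at 32.8 to 37.5 CPM at day 14 and at 54.5 to 75.1 CPM at day 7. The median over all tested genes was 17.1 to 17.4 CPM at day 14 and 12.1 to 17.3 CPM at day 7.

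Few genes went from silent to expressed or the reverse. Over all 32545 genes, 4 had at least 10 counts in every day 14 library and 0 counts in every day 7 library, and 1 had 0 counts at day 14 and at least 10 in every day 7 library.

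The day 7 libraries did not take part equally in the called changes. Among the called rises, the lowest of the 5 day 7 libraries was replicate 1 in 1649 genes and replicate 2 in 765, and the highest was replicate 5 in 1233. Among the called falls, the highest was replicate 1 in 1391 genes and the lowest replicate 5 in 1411. Over all tested genes replicate 1 was the lowest in 30.2% and the highest in 23.1%, and replicate 5 the highest in 26.4% and the lowest in 25%. Rises had a median SD of log2 CPM of 0.29 at day 14 and 0.74 at day 7 (over all tested genes, 0.26 at day 14 and 0.45 at day 7). For falls the median SD was 0.21 at day 14 and 0.38 at day 7.

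Day 7 replicate 5 held a set of genes far above the other libraries of the comparison, and most of these entered the list of large falls. In 171 genes above 5 CPM its level was more than 10 times that of each of the other 8 libraries, and they took 10.4% of its counts. Their levels in control nerve and in the other repair groups were not examined, so the set is not shown to be peculiar to this library. Of the 171, 123 were among the 441 falls of at least 4-fold. Their median level was 0.43, 0.48, 0.66 and 0.61 CPM in the 4 day 14 libraries, against 0.28, 0.28, 0.51 and 0.41 CPM in day 7 replicates 1 to 4 and 106 CPM in replicate 5. The gap between replicate 5 and the rest follows from how these genes were chosen and is no test. Day 14 libraries lay within or above the range of the other 4 day 7 libraries. Without replicate 5, 8 of the 123 were called lower.

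The other 318 large falls, outside that set, mostly kept their call without that library. Their median level was 2.67, 2.71, 2.54 and 2.82 CPM in the day 14 libraries, against 36.1, 19.0, 12.8, 15.7 and 9.32 CPM in day 7 replicates 1 to 5. The groups do not overlap in this median, which is no test, since these genes were called as falls in the same libraries. Without replicate 5, 301 of the 318 remained called lower, which follows in part from setting aside the genes far higher in that library. In 217 of the 318, replicate 1 was the highest day 7 library, against 23.1% of all tested genes.

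In 20 genes the direction of the call turned with that library. They were called lower at day 14 with all 9 libraries (median log2 fold change -4.36) and higher without day 7 replicate 5 (median 2.22). Their median level was 0.962, 1.274, 2.001 and 1.625 CPM at day 14, against 0.14, 0.21, 0.25 and 0.44 CPM in day 7 replicates 1 to 4 and 96.5 CPM in replicate 5. In all 20, replicate 5 was the highest of the 9 libraries, which follows from how they were chosen and is no test. All 20 belong to the 171 genes described above. In 80 called falls in all, the fold change was above 0 without replicate 5, and in no called rise was it below 0.

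Most called rises kept their call without day 7 replicate 5, but the number of rises depended on that library. Of the 2896 rises, 2740 were also called higher without it, and of the 1274 rises of at least 4-fold, 1230. In 680 of the 1274 the lowest day 7 library was replicate 1, and in 448 it was replicate 2. Over all tested genes these shares were 30.2% and 17.6%. The highest day 7 library was replicate 5 in 583 of the 1274, against 26.4% of all tested genes. Leaving out day 7 replicates 1 to 5 in turn gave 963, 986, 1327, 1270 and 1818 rises of at least 4-fold. The median level of those 1274 was 7.57, 8.00, 10.3 and 8.22 CPM at day 14, against 0.19, 0.35, 1.27, 1.30 and 1.88 CPM in day 7 replicates 1 to 5. The lowest day 14 value is above the highest day 7 value, which is no test, since these genes were called as rises in the same libraries. Leaving out replicate 5 added 788 rises and 463 falls to the calls, and 2399 of the 2661 falls kept their call and direction.

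**Figure D3:**
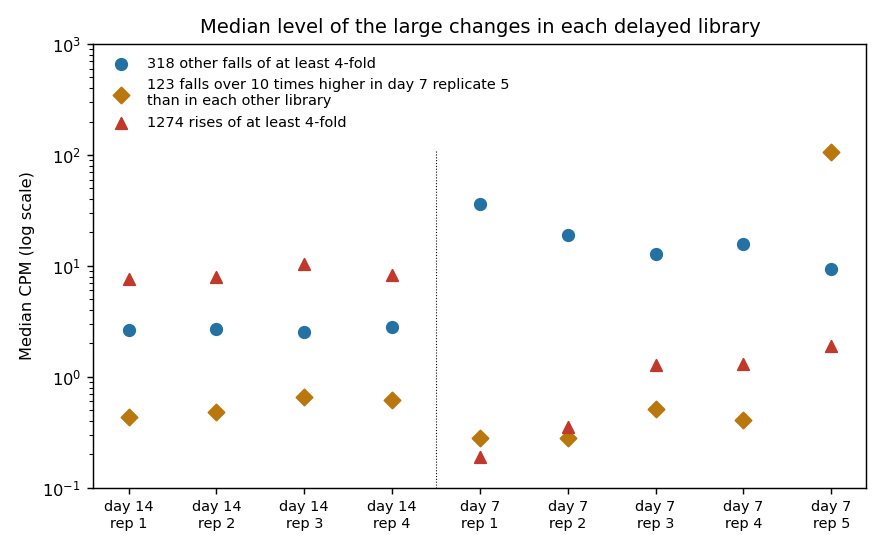
Median CPM, on a log axis, of 3 sets of genes in each of the 9 libraries, with day 14 at the left and day 7 at the right. Red triangles are the 1274 rises of at least 4-fold. Brown diamonds are the 123 large falls chosen for a level in day 7 replicate 5 more than 10 times that of each other library shown. Blue circles are the 318 large falls outside that set. The diamonds are high in replicate 5 alone (106 CPM), which follows from that choice, while circles are high in all 5 day 7 libraries.

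By the rule for named genes, the 2 largest rises and the 2 largest falls are given by ID. They were taken among genes that were called with and without day 7 replicate 5, did not overlap between the groups and averaged at least 1 on the log2 CPM scale over the 30 libraries. The separation of day 14 from day 7 in these genes therefore follows from the choice and is no test. ENSRNOG00000001329 measured 1.92, 3.10, 3.34 and 2.33 CPM in the day 14 libraries (164 counts in all), and had 0 counts in all 5 day 7 libraries. With a floor of 3 counts over the day 7 group, its level was at least 63.0-fold higher at day 14 (edgeR adjusted p = 0.00065, and 0.00121 without replicate 5). In control nerve it lay at 10.7 to 14.1 CPM and at day 21 at 24.7, 11.7 and 1.85 CPM, so that the day 14 libraries stood below every control library and above every day 7 library.

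ENSRNOG00000047686 measured 5.03, 6.13, 19.5 and 4.29 CPM at day 14, against 0.09, 0, 0.13, 0 and 0.06 CPM at day 7, where it had 4 counts in all. Replicate 3 is well above the other day 14 libraries, and all of them are above day 7. Its log2 fold change was 7.08 (SE 1.18, edgeR adjusted p = 0.000167). Control nerve lay at 21.5 to 25.1 CPM and day 21 at 48.6, 43.7 and 9.25 CPM. In immediate repair both genes showed the same order: ENSRNOG00000001329 lay at 1.49 to 6.53 CPM at day 14 and at 0 to 0.06 CPM at day 7, and ENSRNOG00000047686 at 8.34 to 20.5 CPM at day 14 and at 0 to 0.70 CPM at day 7. Limma voom with sample quality weights, which handles such near-zero counts on a log scale, called neither (adjusted p = 0.156 and 0.205).

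ENSRNOG00000015751 measured 0.31, 1.91, 1.02 and 1.78 CPM at day 14, against 343, 106, 15.5, 49.1 and 7.32 CPM in day 7 replicates 1 to 5. Its day 7 values spread widely, with the lowest in replicate 5 still above every day 14 value. The log2 fold change was -6.38 (SE 1.40, edgeR adjusted p = 0.00163). Control nerve lay at 1.384 to 3.563 CPM and day 21 at 0.15, 0.12 and 3.22 CPM, so that the gene stood far above control at day 7 and overlapped control at day 14.

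ENSRNOG00000017766 measured 0.87, 2.71, 0.30 and 0.31 CPM at day 14, against 156, 78.9, 47.4, 38.4 and 28.4 CPM in day 7 replicates 1 to 5. Its log2 fold change was -6.10 (SE 0.96, edgeR adjusted p = 0.000108), and -6.31 without replicate 5. In control nerve 4 of 5 libraries had 0 counts and the other had 2, and day 21 lay at 0.44, 0.43 and 1.58 CPM. Every day 14 library lay above every control library, but on few counts (14, 34, 5 and 5), and that difference was not tested. In immediate repair ENSRNOG00000015751 had a log2 fold change of -7.16 (SE 1.49) and ENSRNOG00000017766 one of -5.33 (SE 0.93). A difference in change between the repairs was called for none of the 4 (edgeR adjusted p = 1 for each), with log2 differences of 1.09, 1.04, 0.78 and -0.78 (SE 1.73, 1.77, 1.73 and 1.14) in the order given here.

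**Figure D4:**
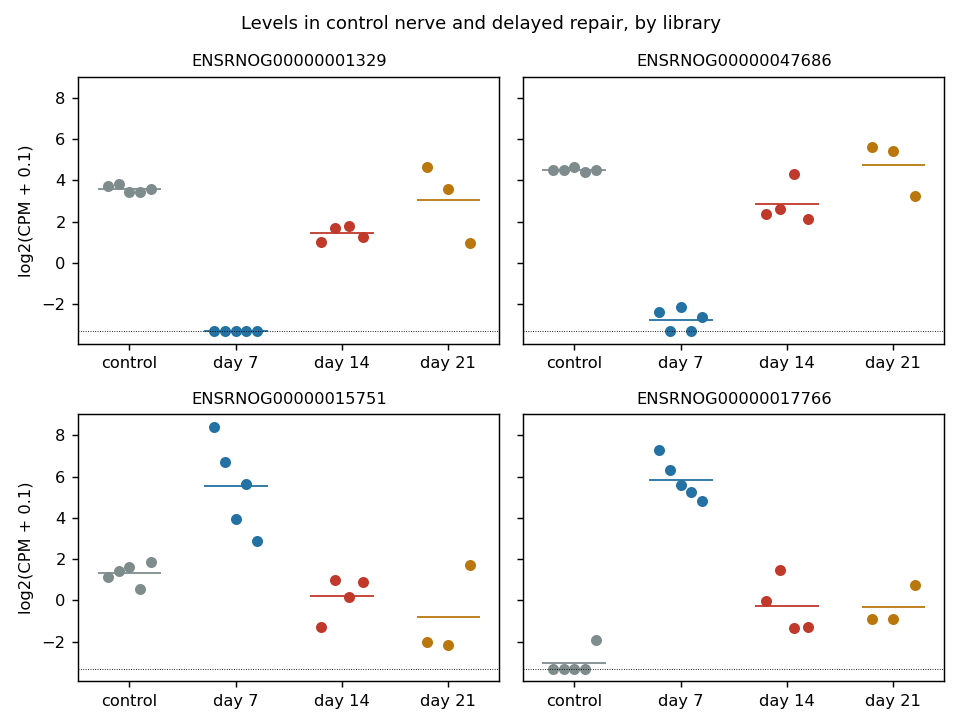
Levels of the 4 genes named by ID as log2(CPM + 0.1), 1 point per library with lines at group means, for control nerve and delayed repair at days 7, 14 and 21. The dotted line marks 0 counts. The upper genes are at or near 0 at day 7 and the lower genes are highest at day 7. Day 14 and day 7 do not overlap, which the rule that chose these genes required.

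To ask whether the same genes moved in other samples, the change was set beside that of immediate repair, a contrast that shares no sample with it. Both contrasts come from the same fit of all 30 libraries, with a shared filter and spread per gene. The lists of calls are therefore not independent. Immediate repair had 3119 rises (19.5%) and 2285 falls (14.3%) at day 14 against day 7, together 33.7% of genes tested. Of the delayed rises, 2275 were also rises after immediate repair (78.6% of the delayed and 72.9% of the immediate list), and of the falls 1668 (62.7% and 73.0%). No gene was called in opposite directions. The 3119 immediate rises had a median log2 fold change of 1.58 in delayed repair, or 1.99 without day 7 replicate 5, against 2.22 in the repair that chose them, and 3055 of them were above 0. The 2285 immediate falls had a median of -0.74 in delayed repair, or -0.81 without that library, against -0.87 in immediate repair, and 2270 were below 0. In the other direction, the delayed rises had a median of 1.81 and the delayed falls one of -0.68 in immediate repair.

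The genes called in immediate repair were also followed in each delayed library. The contrast that chose them holds no delayed library, but the filter and the spread per gene came from the fit of all 30 libraries. Relative to the mean of control nerve, the 3119 immediate rises stood at a median log2 difference of -0.25, -0.33, -0.08 and -0.23 in the day 14 libraries, against -2.83, -2.28, -1.47, -1.42 and -1 in day 7 replicates 1 to 5. The day 14 libraries all lay nearer to control than any day 7 library, and the means were -0.22 ± 0.10 for the 4 day 14 libraries and -1.80 ± 0.74 for the 5 day 7 libraries (SD, n = 4 and 5). The 2285 immediate falls stood above control by 0.36, 0.44, 0.24 and 0.35 at day 14, against 1.42, 1.21, 0.99, 1.08 and 0.70 at day 7. Again no library overlapped, and replicate 5 was the day 7 library nearest to day 14 in both sets. All tested genes had medians of -0.01 to 0.01 at day 14 and -0.15 to -0.01 at day 7. At day 21 of delayed repair the rises stood at -0.25, -0.17 and -0.49 and the falls at 0.33, 0.26 and 0.58, both overlapping day 14. Without day 7 replicate 5 the day 7 means were -2 ± 0.68 and 1.18 ± 0.19 (n = 4).

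**Figure D5:**
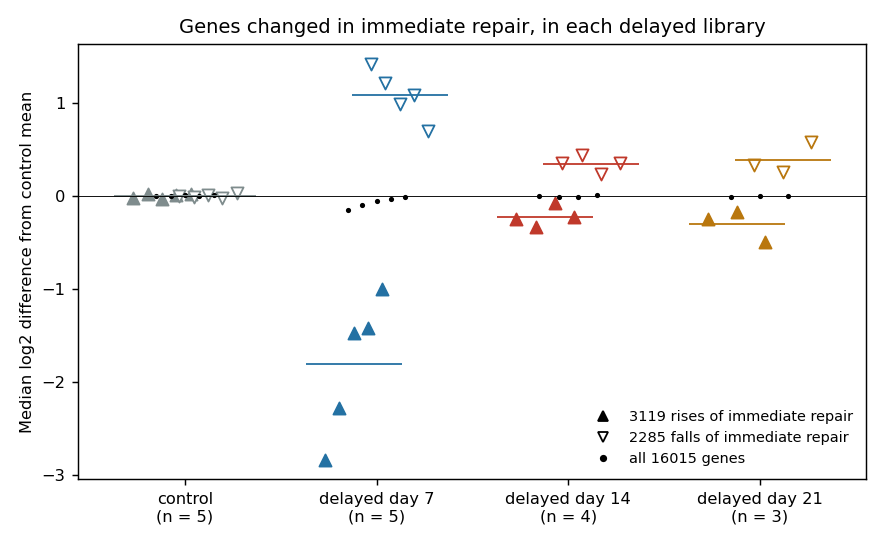
Median log2 difference from the control mean, in each library of control nerve and of delayed repair at days 7, 14 and 21, of genes called in immediate repair between days 14 and 7. Filled triangles are the 3119 rises, open triangles the 2285 falls, black dots all 16015 tested genes, and lines group means. For the rises and for the falls, day 14 libraries lie between -0.33 and 0.44 and nearer to 0 than every day 7 library. For all tested genes both days lie near 0 (-0.01 to 0.01 at day 14, -0.15 to -0.01 at day 7).

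Whether the change differed between the repairs was tested directly. By edgeR no gene was called for a different change in delayed and immediate repair (0% of tested genes, lowest adjusted p = 0.322), and 830 had an unadjusted p under 0.05, which is 5.18% of those tested. The 95% interval of the difference lay within 2-fold for 46.4% of genes, and for the rest a larger difference is not shown to be absent at this spread. Limma voom called 0 with sample weights and 0 with group weights. DESeq2 called 97 genes (0.606%), of which 96 had a lower log2 fold change in delayed repair. Those 97 had a median level of 7.072, 7.402, 8.54 and 8.092 CPM at delayed day 14, against 0.09, 0.14, 0.95, 1.57 and 9.57 CPM in delayed day 7 replicates 1 to 5. In immediate repair they stood at 5.59 to 11.2 CPM at day 14 and at 0 to 0.13 CPM at day 7. In 77 of the 97, replicate 5 was the highest delayed day 7 library, against 26.4% of all tested genes. Without delayed day 7 replicate 1 or 2, edgeR called 9 or 11 genes, all with a lower change in delayed repair. Without delayed day 7 replicate 5 edgeR called 0, as it did with all libraries, with 508 genes at an unadjusted p under 0.05 (3.18%). DESeq2 was not run without that library, so whether its 97 calls would remain was not tested.

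The genes called in delayed repair alone had smaller median changes than all delayed calls, and most pointed the same way in both repairs. The 621 delayed rises not called in immediate repair had a median log2 fold change of 1.11 in delayed and 0.58 in immediate repair. For the 993 falls not called there the medians were -0.64 and -0.27. All delayed rises had a median of 1.8 and all delayed falls one of -0.8 in delayed repair. Of the 621 rises, 18 had a negative fold change in immediate repair, and of the 993 falls 124 had a positive one. Genes called in both repairs had none of opposite sign.

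The position of control nerve and of day 21 completes the description of the called genes. These counts use the libraries that made the calls, and control is shared, so they are no test. Mean control levels lay above the day 14 mean in 1455 of the 2896 rises (50.2%), between the day 14 and day 7 means in 1095 (37.8%), and below the day 7 mean in 346 (11.9%). In the 2661 falls, control lay below the day 14 mean in 1426 (53.6%), between the means in 776 (29.2%) and above the day 7 mean in 459 (17.2%). The median difference from control was -0.01 at day 14 and -1.65 at day 7 for rises, and 0.08 at day 14 and 0.81 at day 7 for falls, all on the log2 scale.

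The day 21 mean lay beyond the day 14 mean, on the side away from day 7, in 952 rises (32.9%) and 788 falls (29.6%). It lay between the day 7 and day 14 means in 1932 rises and 1835 falls, and beyond day 7 in 12 and 38. The median difference of day 21 from day 14 was -0.12 for rises and 0.10 for falls on the log2 scale. Between day 21 and day 14 edgeR called no gene (3 against 4 libraries), with 620 genes at an unadjusted p under 0.05 (3.87%), while DESeq2 called 36 and limma voom with sample weights 69. The 95% interval of that difference lay within 2-fold for 55.0% of genes. Whether the change from day 14 to day 21 is smaller than that from day 7 to day 14 was not tested.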

How the data were processed

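Per the labels' protocols, each library used 400 ng of total RNA (integrity above 6), selected messenger RNA on poly-T beads and kept no strand information. Overlapping and antisense genes cannot be separated in such reads. The authors deposited raw counts per Ensembl gene ID, with 1 column for each library. The tools in the submitters' processing notes are DESeq2 1.38.3, featureCounts 1.5.0-p3 and HISAT2 2.0.5, without roles. For the genome build, the annotation and reads shared between gene copies, the setting is not given in the sources used here. 0 IDs matched the gene tables at hand (RefSeq), so the 32 gene lists fixed by symbol were not tested, and no sequence could be tied to a gene.

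The test was that of edgeR 4.0.16 under R 4.3.3 (filterByExpr, minimum count 10, TMM factors, robust quasi-likelihood test, 7 groups, all 30 libraries, Benjamini-Hochberg over 16015 genes). It was also run on simulated data with the same spread per gene in every group, unlike the day 7 and day 14 groups here. That run therefore does not check the test under unequal spread. CPM uses TMM-scaled totals, and log2 CPM a prior count of 2. Standard errors come from the test statistic. Chi-square per degree of freedom over 16 replicate pairs was at least 25.8, so no pair was a duplicate within sampling noise. Alternatives were DESeq2 1.42.0, relative log expression factors, no filter, the compared groups alone, a replicate block, limma 3.58.1 voom with quality weights and each library left out. Group weights, voom or the compared groups without day 7 replicate 5, and DESeq2 and voom for day 21 against day 14 were added after seeing the data. The comparison, the lists and the rule for named genes (largest changes called with and without replicate 5, not overlapping, mean log2 CPM of at least 1, cut to 2 rises and 2 falls for want of symbols) were chosen with earlier results of these data known.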

Additional observations from a re-analysis of the deposited data

Results flagged for a closer look

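The following values stood apart from their own group of 4 or 5 libraries, measured by the gap to the next library as a share of the group's range. In all, 26 such groups of values were looked at and 5 stood apart. Chance alone sets apart about 1 in 20.

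Day 7 replicate 5 lay at 127.3 on the second component of the 9 libraries, where the other day 7 libraries lay between -14.8 and -8.4. In the same library the median of the 441 falls of at least 4-fold was 26.6 CPM, against 2.94 to 7.78 CPM in the other day 7 libraries. The second value follows from genes called partly on that library and is not independent of the first.

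Among day 14 libraries, replicate 3 had 19.5 CPM of ENSRNOG00000047686, where the others had 4.29 to 6.13 CPM. It also gave the called rises the largest share of counts, 25.2%, where the others gave 22.0% to 22.5%. Day 14 replicate 2 had the lowest total, 12628256 counts, where the others had 15324900 to 15509515. The part of these differences in the results was not tested beyond leaving each library out.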

How the results depend on the processing

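The 5557 calls of day 14 against day 7 became 3347 with the compared groups alone (1787 higher, 1560 lower, 775 and 232 of them at least 4-fold). The replicate block on the compared groups gave 3859 calls, with 1547 lower and 255 lower at least 4-fold. Deviations of same-numbered libraries from their group means correlated at 0.01, 0.23, -0.07 and -0.04 for numbers 1 to 4. Differently numbered libraries were not set beside them, so these values cannot decide whether the numbers pair the samples. Large falls numbered 258 and 255 in limma voom with sample and with group weights. Other settings kept each count within 1.5 times. Leaving out 1 library gave 4171 to 6390 calls, 2238 to 3528 higher, 1933 to 2862 lower, 963 to 1818 rises and 338 to 487 falls of at least 4-fold. The difference between repairs gave 97 calls with DESeq2 and 0 to 11 with 1 library left out. The cause was not tested. Of 18 alternatives, 3 (all voom) did not call ENSRNOG00000001329 and ENSRNOG00000047686, and all called the other 2 named genes. DESeq2 gave no adjusted p for 187 genes. Alternatives on gene lists were not run, since no ID had a symbol. Genes of few counts are limited by depth, and replicates by the spread at day 7.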
